A study of Mus musculus with 5 samples.

Results

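The transcription factor NF-kB and its feedback inhibitors were examined in sorted mouse haematopoietic stem and progenitor cells (HSPCs). The 10 genes were fixed by name. They comprised the 5 subunit genes Nfkb1, Nfkb2, Rel, Rela and Relb, and 5 genes for inhibitors and regulators, namely Nfkbia, Nfkbie, Nfkbiz, Tnfaip3 and Bcl3. All 10 were present among the 11352 genes of the deposited RNA-seq table. The study compared 3 libraries from mice with the genotype Cux1-knockdown;NrasG12D (Cux1-low;NrasG12D, called the NrasG12D libraries below) with 2 libraries from Cux1-knockdown mice (Cux1-low). Cux1, which encodes a homeodomain transcription factor, was thus knocked down in every mouse, and NrasG12D is an oncogenic allele of the small GTPase NRAS. All mice had been given doxycycline and pI:C, a double-stranded RNA mimic and interferon inducer, for 4 weeks, per the labels. Cells were sorted as negative for lineage markers and CD135 and positive for KIT and SCA1. The driver of the NrasG12D allele, the ages of the mice and the number of animals behind each library were not stated in the labels. The p-values therefore set the group difference only against the spread between these libraries, part of which may be technical.

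NF-kB dimers are assembled from 5 proteins that share a Rel homology domain. In the canonical arm, RELA and REL pair with the processed product of Nfkb1 and are held in the cytoplasm by IkB proteins, which the IKK kinase complex marks for degradation after signals from TNF, interleukin-1 or Toll-like receptors. In the non-canonical arm, the kinase NIK, encoded by Map3k14, drives processing of the Nfkb2 product, which pairs with RELB. Active dimers induce the genes of their own inhibitors, so that Nfkbia and Tnfaip3 are widely read as immediate feedback outputs of the pathway. In blood stem cells, both too little and too much NF-kB activity are known to impair self-renewal.

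NF-kB dimers bind kB sites, and a kB match in each promoter that held any is shown here because feedback on these genes is known to act through such sites. The kB consensus was searched on both strands in RefSeq windows (GRCm38.p6) of 250 bases before to 50 after each annotated start, and overlapping matches were joined. Of the 10 genes, 7 matched an entry by symbol. Nfkb1, Relb and Nfkbiz had none. Of the 7, 6 held at least 1 match (8 of their 10 windows), against 6.03% of the 8724 genes of the deposited table that had a window and 5.07% of their 11137 windows. Rela was the gene with no match in its window. Each line gives 30 bases on the gene's strand, 5′ to 3′, with the match in capitals.
Nfkb2, chr19:46304689-46304718 (+), match from 39 bases before a start: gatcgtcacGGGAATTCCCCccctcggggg
Rel, chr11:23771041-23771070 (-), from 92 bases before: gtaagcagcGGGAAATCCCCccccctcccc
Nfkbia, chr12:55492657-55492686 (-), from 29 bases before: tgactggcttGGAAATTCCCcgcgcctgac
Nfkbie, chr17:45555584-45555613 (+), from 106 bases before: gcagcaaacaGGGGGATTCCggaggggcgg
Tnfaip3, chr10:19015403-19015432 (-), from 12 bases before: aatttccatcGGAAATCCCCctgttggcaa
Bcl3, chr7:19822734-19822763 (-), from base 3 after the start: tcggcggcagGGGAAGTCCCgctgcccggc

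The Nfkb2 and Rel matches read as the consensus on both strands, while those of Nfkbia, Tnfaip3 and Bcl3 lie on the strand opposite to the gene and that of Nfkbie on its own strand. Nfkb2, with 3 annotated windows, held 3 further matches, and Tnfaip3 held 1 further match from 125 bases before the start. The Nfkbia promoter, which drives the gene of the archetypal inhibitor IkB-alpha, is shown at greater length to place its match close to the start. Its 250 bases before the start (chr12:55492648-55492897, minus strand, match in capitals) read as follows.
Nfkbia promoter: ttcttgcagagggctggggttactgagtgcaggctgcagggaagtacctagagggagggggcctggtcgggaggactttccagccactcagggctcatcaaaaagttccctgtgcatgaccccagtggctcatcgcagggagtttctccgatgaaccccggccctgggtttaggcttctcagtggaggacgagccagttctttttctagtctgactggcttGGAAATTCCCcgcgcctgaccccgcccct

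A match is a description of the letters in the window and no measurement of binding. Among the 6 genes that hold one, only Nfkbia had a positive log2 fold change in the values below (0.15, limma adjusted p = 0.458). The sign was negative for 9 of the 10 members, with or without a match.

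Values are normalized CPM (read counts scaled to library size, deposited by the authors), and every value was a whole multiple, within 0.001 of a step, of the smallest step in its library. Taking 1 step as 1 read, the libraries held 16489711 to 20262498 reads over the listed genes, and the members 113 to 4809 each. These reads were calculated from the values and entered no test. NrasG12D library 3 stood apart from the other two of its group on the first principal component of all genes (-4.16, against 29.1 and 38.0, with the Cux1-low libraries at -32.8 and -30.1), and results are therefore given with and without it where that matters. Kit, whose product was used in the sort, was at 477, 569 and 816 in the NrasG12D libraries and at 1359 and 1373 in the Cux1-low libraries. Flt3, which encodes CD135, was detected at 165 to 230 in the NrasG12D libraries and 326 to 388 in the Cux1-low libraries, although the sort had selected against that protein.

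Of the NF-kB genes, Bcl3, Relb and Nfkbie were the ones whose levels stood furthest below those of Cux1-low in the NrasG12D libraries, with means of 44.1%, 56.6% and 72.1% of the Cux1-low mean. The means of the other 7 were 80.6% to 112% of it. Across the table, 1.13% of genes passed limma's test (Benjamini-Hochberg adjusted p under 0.05, 11352 genes tested), 0.872% as lower and 0.255% as higher, and 0 of the 10 members did. At an unadjusted p under 0.05, limma gave 3 members, Bcl3, Relb and Nfkbie, all lower, against 16.5% of all genes that were lower and 14.8% that were higher at that level. The authors' deposited table called the same 3 members lower (FDR under 0.05) and 0 higher, where 9.14% of all genes were called lower and 6.97% higher. The sign was negative for 9 of the 10 members, with Nfkbia the exception, and for 50.3% of all genes, and the median log2 fold change was -0.24, against -0.00 over all genes. The members were chosen with earlier results of these data known, and they share the same 5 libraries, so the count of signs carries no test.

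**Figure D1:**
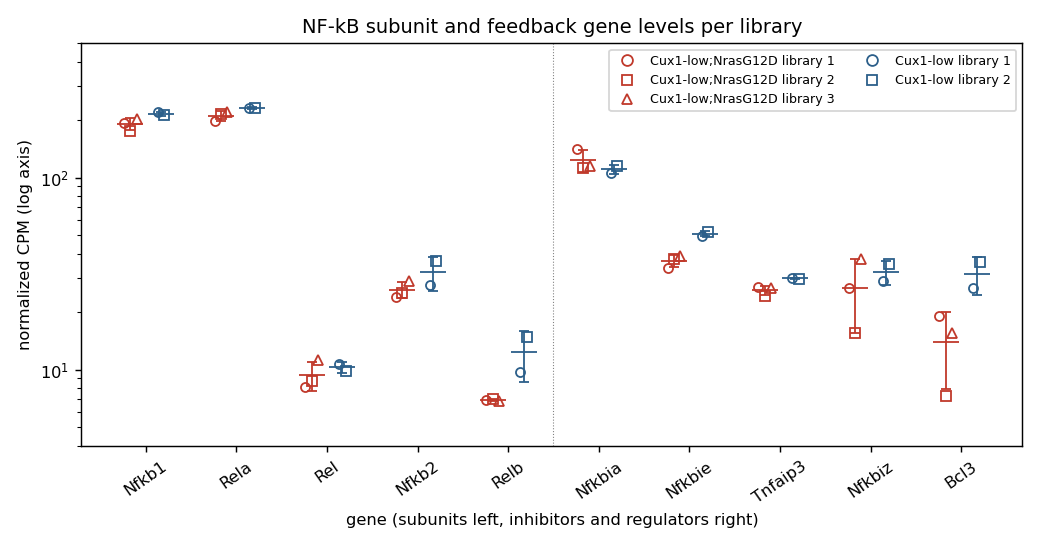
Normalized CPM (log axis) of the 10 genes in each library, NrasG12D libraries in red and Cux1-low libraries in blue, with horizontal bars at the mean and whiskers of 1 SD (n = 3 and n = 2). Bcl3 (7.30 to 18.9 in NrasG12D against 26.6 to 36.5 in Cux1-low libraries), Relb and Nfkbie show groups that lie apart, while Rel, Nfkb2, Nfkbia and Nfkbiz overlap.

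Among the subunits, Rela (chromosome 19, 5637483 to 5648130, plus strand) encodes the main transactivating partner of the canonical arm. Rela was at 197, 213 and 219 normalized CPM in the NrasG12D libraries and at 229 and 231 in the Cux1-low libraries. The groups did not overlap, yet the distance was small, with a log2 fold change of -0.14 on the log2(normalized CPM + 1) scale (SE 0.10, 95% interval -0.37 to 0.10, limma adjusted p = 0.366).

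Nfkb1 (chromosome 3, 135584655 to 135691547, minus strand) encodes the precursor of the DNA-binding partner of RELA. Nfkb1 was at 193, 176 and 202 normalized CPM in the NrasG12D libraries, against 219 and 211 in the Cux1-low libraries. All 3 NrasG12D values lay below both Cux1-low values, with a log2 fold change of -0.18 (SE 0.10, 95% interval -0.42 to 0.07, limma adjusted p = 0.279). For these abundant subunits the interval leaves room for a decrease to 0.774 of the Cux1-low level for Rela and 0.746 for Nfkb1, and for an increase to 1.07 and 1.05.

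Rel (chromosome 11, 23736847 to 23770970, minus strand) encodes c-REL, the subunit best known from lymphocytes. Rel was at 8.10, 8.73 and 11.2 normalized CPM in the NrasG12D libraries, against 10.7 and 9.82 in the Cux1-low libraries. NrasG12D library 3 had the highest value of all 5 and the groups overlapped, with a log2 fold change of -0.14 (SE 0.20, 95% interval -0.61 to 0.34, limma adjusted p = 0.655).

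Of the genes of the non-canonical arm, Nfkb2 (chromosome 19, 46304320 to 46312385, plus strand) encodes the precursor that is processed after NIK signals. Nfkb2 was at 24.0, 25.2 and 28.8 normalized CPM in the NrasG12D libraries and at 27.6 and 36.9 in the Cux1-low libraries. The groups overlapped through NrasG12D library 3 and Cux1-low library 1 (log2 fold change -0.29, SE 0.17, limma adjusted p = 0.284). In the annotation, 830 bases of Nfkb2 exons are shared with genes on the opposite strand, Psd and AC114539.1. Psd was at 9.44, 14.7 and 7.90 normalized CPM in the NrasG12D libraries, against 4.36 and 4.57 in the Cux1-low libraries, and no source used here states if reads were counted by strand, so reads of this stretch cannot be assigned with certainty.

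Relb (chromosome 7, 19606217 to 19629438, minus strand) encodes the partner of the processed Nfkb2 product. Relb was at 6.98, 7.02 and 6.87 normalized CPM in the NrasG12D libraries and at 9.71 and 14.9 in the Cux1-low libraries. The NrasG12D values were nearly equal, that of library 3 included, and all were below both Cux1-low values, which lay far from each other. The log2 fold change was -0.71 (SE 0.22, 95% interval -1.23 to -0.19, limma adjusted p = 0.0951, between 0.0211 and 0.453 under the 13 alternatives tried), and the authors' deposited table gave -0.82 with an FDR of 0.0408. Cux1-low library 2 bore on the size. Without it the log2 fold change was -0.43, and without Cux1-low library 1 it was -1.0.

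**Figure D2:**
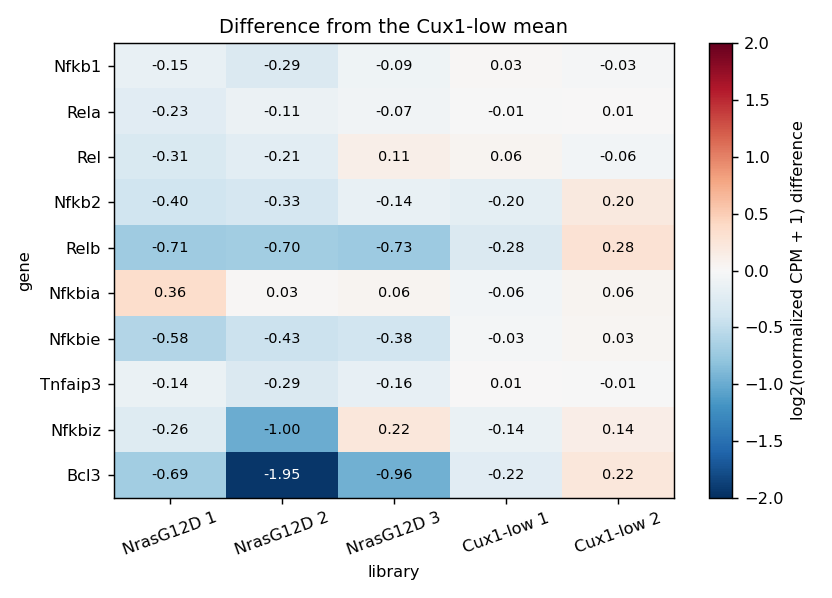
Difference of log2(normalized CPM + 1) from the Cux1-low mean for each gene (rows) and library (columns, NrasG12D left), blue for lower and red for higher. Bcl3 spans -0.69 to -1.95 in the NrasG12D libraries, Relb -0.70 to -0.73, and Nfkbiz -1.0 to 0.22.

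Nfkbia (chromosome 12, 55489410 to 55492647, minus strand) encodes IkB-alpha, the inhibitor that is resynthesized first after NF-kB activation. Nfkbia was at 142, 113 and 115 normalized CPM in the NrasG12D libraries and at 106 and 115 in the Cux1-low libraries. Only NrasG12D library 1 stood clearly higher, and the other values overlapped. The log2 fold change was 0.15 (SE 0.13, 95% interval -0.16 to 0.46, limma adjusted p = 0.458), which allows a level of 0.892 to 1.38 times that of Cux1-low. Without NrasG12D library 1 the value was 0.05.

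Tnfaip3 (chromosome 10, 19000910 to 19015657, minus strand) encodes A20, a ubiquitin-editing enzyme that shuts off signalling above IKK. Tnfaip3 was at 27.0, 24.3 and 26.5 normalized CPM in the NrasG12D libraries and at 30.001 and 29.7 in the Cux1-low libraries. The groups did not overlap but lay within 1.24-fold of each other over all 5 libraries, with a log2 fold change of -0.20 (SE 0.13, 95% interval -0.51 to 0.12, limma adjusted p = 0.342). No increase in the immediate feedback pair Nfkbia and Tnfaip3 was thus detectable with these libraries, and the upper bounds of the intervals were 1.38 and 1.09 times the Cux1-low level.

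Nfkbie (chromosome 17, 45555703 to 45563169, plus strand) encodes IkB-epsilon, an inhibitor whose feedback is slower. Nfkbie was at 33.8, 37.7 and 38.9 normalized CPM in the NrasG12D libraries and at 49.9 and 52.2 in the Cux1-low libraries. The replicates of each group lay close together and well apart from the other group, with NrasG12D library 3 beside libraries 1 and 2. The log2 fold change was -0.46 (SE 0.13, 95% interval -0.76 to -0.16, limma adjusted p = 0.0835, between 0.0199 and 0.418 under the 13 alternatives), and the authors' deposited table gave -0.47 with an FDR of 0.0348.

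The genes of the atypical, nuclear IkB proteins, which modulate transcription with NF-kB dimers, were the most variable members. Bcl3 (chromosome 7, 19808462 to 19822770, minus strand), whose product binds homodimers of the processed Nfkb1 and Nfkb2 proteins, was at 18.9, 7.30 and 15.5 normalized CPM in the NrasG12D libraries. In the Cux1-low libraries it was at 26.6 and 36.5. Every NrasG12D value was below both Cux1-low values, and library 2 was the lowest of all. The means were 13.9 ± 5.97 (SD, n = 3) in NrasG12D and 31.5 ± 7.01 (SD, n = 2) in Cux1-low libraries, so the NrasG12D mean was 44.1% of the Cux1-low mean. The log2 fold change was -1.20 (SE 0.37, 95% interval -2.08 to -0.32, limma adjusted p = 0.0965, between 0.000466 and 0.405 under the 13 alternatives), and the authors' deposited table gave -1.18 with an FDR of 0.0275. Without NrasG12D library 2 the log2 fold change was -0.83. In the annotation, 161 bases of Bcl3 exons are shared with Gm16175 on the opposite strand, so reads of that stretch cannot be assigned with certainty.

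Nfkbiz (chromosome 16, 55811375 to 55838899, minus strand) encodes IkB-zeta, a cofactor for secondary response genes. Nfkbiz was at 26.6, 15.6 and 37.6 normalized CPM in the NrasG12D libraries and at 29.1 and 35.5 in the Cux1-low libraries. The lowest and the highest of the 5 values were both NrasG12D libraries, so the groups overlapped fully (log2 fold change -0.35, SE 0.33, 95% interval -1.14 to 0.45, limma adjusted p = 0.496). Without NrasG12D library 2 the log2 fold change was -0.02, and without library 3 it was -0.63. The immediate early gene Fos, chosen after its values were seen, had the same order within the NrasG12D libraries at 1688, 950 and 2708 normalized CPM, against 1796 and 2035 in the Cux1-low libraries. Its part in the Nfkbiz values was not tested.

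**Figure D3:**
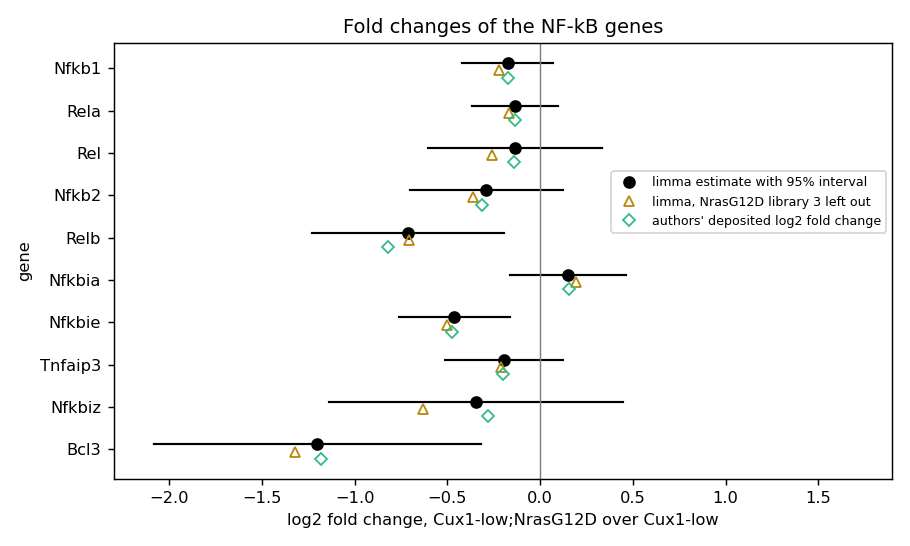
Log2 fold change of NrasG12D over Cux1-low for each gene, with limma's estimate and 95% interval in black, the estimate without NrasG12D library 3 as triangles and the authors' deposited value as diamonds. The intervals of Relb, Nfkbie and Bcl3 lie below 0, before any adjustment for the number of genes tested.

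Leaving out NrasG12D library 3 raised the share of all genes that passed limma's test to 37.4%, of which genes lower in NrasG12D made 19.4% of those tested. In that fit 3 members fell, namely Bcl3 (log2 fold change -1.32, limma adjusted p = 0.0377), Nfkbie (-0.50, limma adjusted p = 0.0199) and Relb (-0.71, limma adjusted p = 0.0482), and 0 rose, where 18.0% of all genes tested rose. For 6 of the 10 members, every NrasG12D library was below every Cux1-low library, while 27.0% of all genes were lower in that sense and 53.5% did not overlap in either direction. These 6 were Nfkb1, Rela, Relb, Nfkbie, Tnfaip3 and Bcl3.

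Levels of different genes were compared per kilobase of the longest protein-coding transcript. The order ran from Nfkbia (77.9 ± 10.2 normalized CPM per kb) and Rela (77.2 ± 4.23) through Nfkb1 (46.2 ± 3.23) and Nfkbie (15.1 ± 1.10) to Relb (3.15 ± 0.0358) and Rel (1.25 ± 0.218) in the NrasG12D libraries (SD, n = 3). In the Cux1-low libraries Rela was first (84.8 ± 0.561), followed by Nfkbia (69.9 ± 3.91), Nfkb1 (52.2 ± 1.32), Nfkbie (20.97 ± 0.674) and Bcl3 (17.04 ± 3.79), with Rel again last (1.38 ± 0.0868, SD, n = 2). Nfkbia and Rela overlapped in the NrasG12D libraries and did not in the Cux1-low libraries. Bcl3, Nfkb2, Nfkbiz and Tnfaip3 averaged 7.52, 6.76, 6.46 and 5.87 normalized CPM per kb in the NrasG12D libraries, and of these neighbours only Nfkb2 and Tnfaip3 did not overlap there. The transcript in use is not known from this table, so the order of close genes depends on the length taken.

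The make-up of the subunits was described by each gene's share of their summed level per kb. Rela made 55.8%, 59.4% and 56.8% in the NrasG12D libraries and 56.1% and 55.3% in the Cux1-low libraries. Together with Nfkb1, it made 91.5% to 91.9% in NrasG12D and 88.6% to 91.4% in Cux1-low libraries. Canonical subunits thus made most of the subunit mRNA in every library. Relb made 2.43%, 2.40% and 2.19% of the sum in the NrasG12D libraries, against 2.92% and 4.37% in the Cux1-low libraries. Nfkb2 and Relb together made 7.24%, 7.35% and 7.47% in the NrasG12D libraries and 7.69% and 10.59% in the Cux1-low libraries. Every NrasG12D share was thus below both Cux1-low shares, though the nearest were close. The share of Nfkb2 alone overlapped (4.81%, 4.95% and 5.28% against 4.77% and 6.22%), while that of Relb did not. Among the inhibitors, the ratio of Nfkbie to Nfkbia per kb was 0.155, 0.217 and 0.220 in the NrasG12D libraries and 0.305 and 0.295 in the Cux1-low libraries. Nfkbie was thus lower relative to Nfkbia in all 3 NrasG12D libraries. Other IkB genes, such as Nfkbib, did not enter this ratio. Nfkbia over Rela was 1.24, 0.908 and 0.903 in the NrasG12D libraries and 0.795 and 0.852 in the Cux1-low libraries. These ratios are descriptions without a test.

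**Figure D4:**
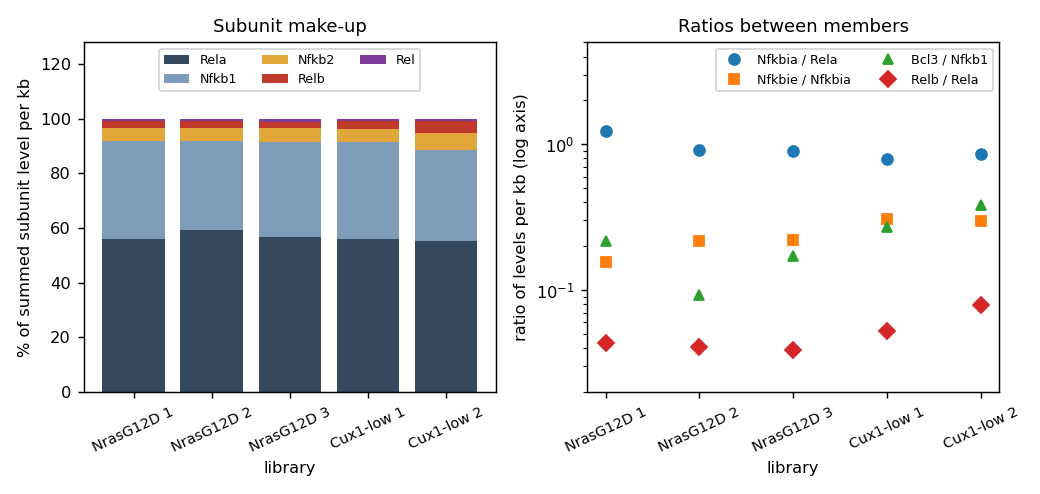
Left, share of each subunit in the summed subunit level per kb in each library, and right, ratios between members on a log axis, with NrasG12D libraries left of Cux1-low libraries. Rela and Nfkb1 fill 88.6% to 91.9% of every bar, and the ratio of Nfkbie to Nfkbia is 0.155 to 0.220 in NrasG12D against 0.295 to 0.305 in Cux1-low libraries.

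For 9 members, the gene whose pattern over the 5 libraries was most like the member's was found by the root mean square difference of centred log2 values among 10436 genes. Tmem175 lay nearest to Tnfaip3 (0.00431 log2 units), Parp11 to Rel (0.0184), Atxn10 to Nfkb1 (0.0197) and Psme2b to Nfkbia (0.0208). Mgea5 lay nearest to Nfkbie (0.0278), Vps9d1 to Nfkb2 (0.0337), Thap4 to Relb (0.0518), Itpripl2 to Nfkbiz (0.0599) and Podnl1 to Bcl3 (0.0720). How close the nearest gene lies for other patterns was not measured.

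Around these genes, the receptor end of the pathway held more lower than higher values. Of 12 measured receptor genes, 11 had a negative sign (median log2 fold change -0.56), against 50.3% of all genes. In limma's adjusted test 1 receptor gene fell, where 0.872% of all genes tested fell. This was Il1r1, the interleukin-1 receptor, at 21.95, 24.8 and 30.1 normalized CPM in the NrasG12D libraries, against 56.6 and 51.0 in the Cux1-low libraries (log2 fold change -1.05, SE 0.17, limma adjusted p = 0.0452). The call was lost without any single library other than NrasG12D library 3 (log2 fold changes of -0.95 to -1.13, limma adjusted p = 0.0875 to 0.400) and with a pseudocount of 0.1 (limma adjusted p = 0.0522). The authors' deposited table called 5 receptor genes lower and 0 higher, where 9.14% of all genes were called lower and 6.97% higher. Among the 5 were Tnfrsf1b, the second TNF receptor, with a log2 fold change of -0.57 there, and Tlr2 with -0.68.

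Ligand genes pointed in different directions. Tnf rose in the NrasG12D libraries, at 15.5, 12.1 and 11.8 normalized CPM, against 5.0 and 4.81 in the Cux1-low libraries (log2 fold change 1.25, SE 0.19, limma adjusted p = 0.0446). This call too was lost without any single library other than NrasG12D library 3 (log2 fold changes of 1.14 to 1.30, limma adjusted p = 0.0823 to 0.365). Ltb, which encodes lymphotoxin beta, a ligand of the non-canonical arm, was at 29.6, 22.9 and 36.8 in the NrasG12D libraries and at 53.4 and 92.2 in the Cux1-low libraries (limma adjusted p = 0.0684). Il18 had a log2 fold change of -1.10 (limma adjusted p = 0.116), and these 3 were all that was measured of 10 listed ligands.

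Of 17 kinases of the IKK complex and its surroundings, 13 had a negative sign (median log2 fold change -0.28) and 0 passed limma's adjusted test, with 9 lower and 0 higher at an unadjusted p under 0.05, where 16.5% of all genes were lower and 14.8% higher. The authors' deposited table called 3 lower, Ikbke, Map3k8 and Map3k14, where 9.14% of all genes were called lower. Map3k14, the gene of NIK, was at 21.7, 18.3 and 26.2 normalized CPM in the NrasG12D libraries and at 31.8 and 35.3 in the Cux1-low libraries (log2 fold change -0.60, SE 0.18, limma adjusted p = 0.0951). Ikbke, an IKK-related kinase, was at 26.7, 24.3 and 29.9 in the NrasG12D libraries, against 46.2 and 54.3 in the Cux1-low libraries (log2 fold change -0.87, limma adjusted p = 0.0508). Map3k8, a kinase that links IKK to ERK, had a log2 fold change of -1.12 (limma adjusted p = 0.0727).

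The adaptors and ubiquitin ligases gave a similar count, with 15 of 19 measured genes negative (median log2 fold change -0.31), 0 past limma's adjusted test, and 6 lower and 0 higher at an unadjusted p under 0.05 (16.5% and 14.8% of all genes). Nod1, a sensor of bacterial peptidoglycan, was at 12.7, 10.3 and 20.8 normalized CPM in the NrasG12D libraries and at 48.8 and 42.5 in the Cux1-low libraries (limma adjusted p = 0.0508). Traf1, an adaptor, and Birc2, a ubiquitin ligase, had log2 fold changes of -1.36 and -0.41. The authors' deposited table called 5 of these genes lower and 0 higher, where 9.14% of all genes were called lower and 6.97% higher.

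Of 16 further inhibitors, 11 had a negative sign (median log2 fold change -0.20) and 0 passed limma's adjusted test, with 4 lower and 2 higher at an unadjusted p under 0.05, against 16.5% and 14.8% of all genes. Tnip1, whose product works with A20, was at 47.5, 47.9 and 51.2 normalized CPM in the NrasG12D libraries, against 67.5 and 71.6 in the Cux1-low libraries (log2 fold change -0.50, limma adjusted p = 0.0694). Nfkbid, which encodes another nuclear IkB protein, was at 45.9, 31.3 and 44.2 in the NrasG12D libraries and at 23.4 and 24.1 in the Cux1-low libraries (log2 fold change 0.73, limma adjusted p = 0.0806). The authors' deposited table called Nfkbid higher and Tnip1 lower, so 2 atypical IkB genes, Nfkbid and Bcl3, were called there in opposite directions. Of all genes, 6.97% were called higher there and 9.14% lower. Itch, a ubiquitin ligase gene, had a log2 fold change of -0.42 (limma adjusted p = 0.12).

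Known NF-kB target genes showed no common direction. Of 22 measured, 11 had a positive and 11 a negative sign (median log2 fold change 0.01). In limma's adjusted test 1 target gene rose, where 0.255% of all genes tested rose. This was the chemokine gene Cxcl2, at 8.21, 5.93 and 4.92 normalized CPM in the NrasG12D libraries and at 1.37 and 1.30 in the Cux1-low libraries (log2 fold change 1.63, limma adjusted p = 0.0452). It was not called without any single library other than NrasG12D library 3 (log2 fold changes of 1.46 to 1.66, limma adjusted p = 0.0872 to 0.365) or with a minimum of 5 normalized CPM (limma adjusted p = 0.0529). The authors' deposited table called 3 targets higher, Cxcl2, Ehd1 and Sod2, and 2 lower, Irf1 and Icam1. Of all genes, 6.97% were called higher there and 9.14% lower. Sod2, the mitochondrial superoxide dismutase, was at 159, 157 and 139 in the NrasG12D libraries, against 113 and 115 in the Cux1-low libraries. Irf1, which interferons also induce, was at 118, 93.4 and 134 in the NrasG12D libraries and at 209 and 205 in the Cux1-low libraries (limma adjusted p = 0.0533).

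**Figure D5:**
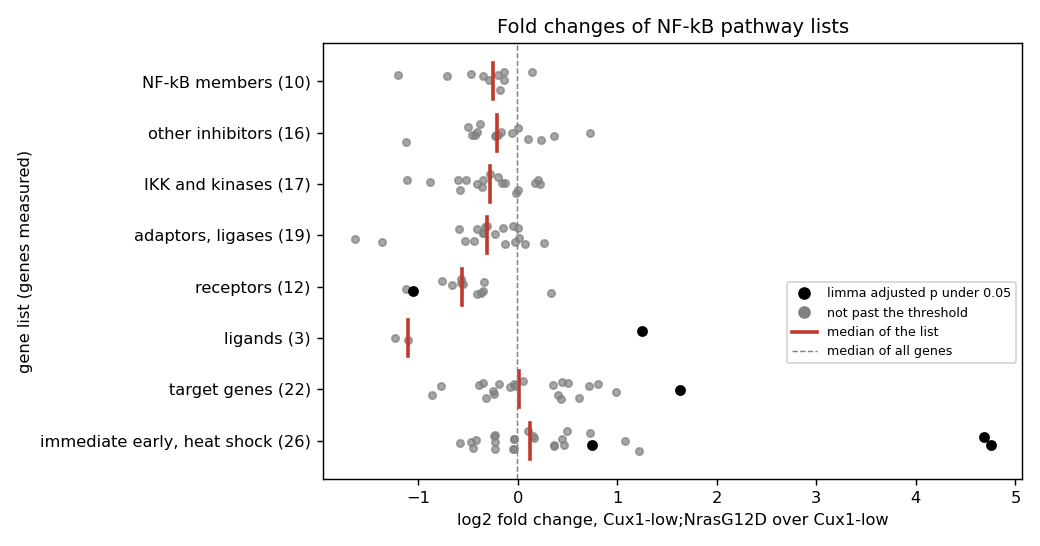
Log2 fold change of NrasG12D over Cux1-low for each measured gene of the NF-kB members and of the lists around them, with list medians in red, the median of all genes dashed and genes past limma's adjusted threshold in black. The list medians are -0.24 for the members, -0.56 for receptors and 0.01 for target genes, and Il1r1, Tnf, Cxcl2 and 3 heat shock genes are the ones past the threshold.

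Other genes moved with the groups beside the NF-kB genes. Of 26 measured immediate early and heat shock genes, 3 rose in limma's adjusted test, namely Hspa1b, Hspa1a and Hsp90aa1, where 0.255% of all genes tested rose. These 3 are all heat shock genes. The median log2 fold change of that list was 0.13, which pools genes of unlike sign. Every measured heat shock gene was positive, and the 12 negative signs of the list all belonged to immediate early genes, Fos and Jun among them. The other immediate early genes were positive. Hsp90aa1 was not called without any single library other than NrasG12D library 3 (limma adjusted p = 0.0604 to 0.365), while Hspa1a and Hspa1b kept their calls without each library. Hspa1a and Hspa1b are near-identical copies whose reads cannot be told apart with certainty. Markers of other cell types are given as summed normalized CPM. Flt3 and Itga2b stand in 2 of these lists each. The 9 measured of 13 B cell genes were all higher by group mean and summed to 64.8 to 572 in the NrasG12D libraries, against 61.5 to 85.3 in the Cux1-low libraries, with library 3 the lowest of its group and with Pax5, Rag1, Ms4a1 and Vpreb2 not in the table. The 8 measured of 9 dendritic cell genes summed to 590 to 1009 in the NrasG12D libraries and to 1121 to 1385 in the Cux1-low libraries. By group mean 5 were lower, the MHC class II genes H2-Aa, H2-Ab1 and H2-Eb1, with Cd74 and Flt3. The 3 higher were Irf8, Itgax and Ccr9. Irf8 was at 435, 350 and 120 normalized CPM in the NrasG12D libraries, against 116 and 123 in the Cux1-low libraries. In limma's adjusted test 1 of the 8 fell, namely H2-Aa. H2-Aa was at 53.8, 32.6 and 34.5 normalized CPM in the NrasG12D libraries, against 164 and 102 in the Cux1-low libraries (log2 fold change -1.69, limma adjusted p = 0.0478, between 4.99e-08 and 0.387 under the 13 alternatives). Its call was lost without any single library other than NrasG12D library 3, with a pseudocount of 0.1 or 0.5, with a minimum of 5 normalized CPM and with robust limma. No other gene of the marker lists passed limma's adjusted test, which 1.13% of all genes tested passed. The 9 measured of 11 erythroid genes were all higher by group mean, with sums of 5655 to 11111 in NrasG12D and 4639 to 5060 in Cux1-low libraries. Hbb-bt and Hba-a1 were not in the table, and Car1 and Car2 together made most of each sum. The 7 measured of 8 megakaryocyte genes were all lower, with 536 to 1095 against 1248 to 1282. A list of 9 surface marker genes summed to 1784 to 3128 in NrasG12D and 3776 to 3900 in Cux1-low libraries. Only Kit, Ly6a and Flt3 of these encode proteins named in the sort, and the protein of Flt3 was selected against. By group mean 7 of the 9 were lower and 2, Slamf1 and Cd48, were higher. Ly6a, which encodes SCA1, was at 24.2, 14.2 and 37.7 normalized CPM in the NrasG12D libraries, against 44.7 and 48.7 in the Cux1-low libraries.

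Monocyte and macrophage genes (9 measured, 7 higher by group mean) summed to 505 to 940 in the NrasG12D libraries, against 503 to 563 in the Cux1-low libraries. Neutrophil genes (5 measured of 11) summed to 7932 to 18805 in NrasG12D and 7308 to 10351 in Cux1-low libraries. S100a8, S100a9, Ngp, Camp, Ltf and Retnlg were not in the table. Mpo made most of each sum, at 6917 to 16346 in NrasG12D and 6253 to 8799 in Cux1-low libraries. T and NK cell genes (3 measured, with Cd3e, Cd3d and Cd3g not in the table) summed to 234 to 352 against 257 to 286. The part of these cells in the levels of Bcl3, Relb and Nfkbie was not tested. In such bulk samples fewer cells of a type and less RNA per cell cannot be told apart.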

How the data were processed

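TopHat, HTSeq and edgeR, with no version or role, are named in the submitters' processing notes, as are the builds mm10 and hg19 (mm10 is the mouse one). The deposited table lists 11352 genes, each above 1 in at least 3 libraries, so genes above 1 only in the 2 Cux1-low libraries are missing. Per the file headers the library columns are CPM, but the deposited signal values are normalized by a composition factor, because columns sum to 971746 to 1026780. They are whole multiples of 1 step per library, within 0.001 of it. The reads this gives were used for depth and no count test was run on them. The authors' deposited table also gives a log2 fold change, a p-value, an FDR and a likelihood ratio score.

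limma 3.58.1 (R 4.3.3) with a trended variance was run on log2(value + 1) of all genes with at least 1 in at least 2 libraries (none was removed), without a block, with Benjamini-Hochberg adjustment at 0.05. The fit was also run on simulated data. All simulated libraries shared the same spread and none stood apart from its group, so the simulation does not cover a library such as NrasG12D library 3. Fold changes on this scale understate changes of low genes. Members and lists were chosen with earlier results of these data known. From each pathway list the text names genes past the threshold, or otherwise the 3 with the smallest p. Marker lists are described by counts and sums. H2-Aa is named from them because it passed, and Mpo, Car1 and Car2 because they made most of a sum. Kit, Ly6a and Flt3 are named for the sort. Other marker genes are named to show which genes lie behind a sum or a sign, after their values were seen. Ltb, Il18, Tnfrsf1b, Tlr2, Ehd1, Sod2, Irf1, Icam1 and Fos were chosen after their values were seen. The gene most like Rela is not reported here. Alternatives covered pseudocount, filter, scaling, robust variance, replicate block and leaving out each library. Coordinates and transcripts are from GENCODE M21, promoters from RefSeq GRCm38.p6. Python 3.11.15 was used elsewhere.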

Additional observations from a re-analysis of the deposited data

How the results depend on the processing

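All 10 members kept the sign of their log2 fold change under the 13 alternatives tried (130 values, 0 reversed), and 123 stayed on the same side of the threshold. The other 7 were calls gained when NrasG12D library 3 did not enter the estimate. Leaving out 1 library at a time, the members called lower ranged from 0 to 3. The log2 fold changes ranged from -1.0 to -0.43 for Relb, from -0.50 to -0.41 for Nfkbie and from -1.46 to -0.83 for Bcl3. Over all genes, 3 to 2043 were called higher and 0 to 2200 lower, against 29 and 99 with all libraries. Pathway list genes called ranged from 2 to 17 higher and from 0 to 41 lower, against 5 and 1.

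With the replicate number as a block, NrasG12D library 3 has no partner and drops out, which leaves 4 libraries. This replicate block gave 1892 genes higher and 2271 lower, 18 and 43 pathway genes, and 4 members lower, with log2 fold changes of -0.71 for Relb, -0.50 for Nfkbie, -0.63 for Nfkbiz and -1.32 for Bcl3. Deviations of same-numbered libraries from their group means correlated at -0.19 and -0.00. The deviations of the 2 Cux1-low libraries mirror each other, so these correlations cannot decide whether the libraries were paired. A pseudocount of 0.1 gave 63 genes lower and 0 pathway genes lower, rescaling columns to 1000000 gave 182 and 4, and median-of-ratios scaling gave 3 pathway genes lower. The cause was not tested. Low counts of replicates (3 and 2) limit the precision of every member.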
